A study of Mus musculus with 10 samples.

Results

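The control precipitate of an RNA immunoprecipitation was set against the RNA it was taken from. Its members were the 3 arrays labelled as IgG precipitates 2, 3 and 4 and the 3 input arrays with the same numbers, which made 6 of the 10 arrays of the series and 3 numbered pairs. All 6 samples came from cortices of CD1 mouse embryos collected at embryonic days 12 to 13. The precipitates held RNA recovered with control IgG from the Magna RIP kit, an antibody without a set target in the tissue, and the inputs held total RNA. Other samples were precipitates made with a 4E-T antibody, and 4E-T arrays 2 and 3 are given beside the IgG arrays where their level matters. According to the series design there were 3 biological replicates, and the labels do not say how many embryos went into one, so the p-values measure the spread between these samples.

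In an RNA immunoprecipitation an antibody bound to beads pulls down a protein with the RNA attached to it, and a control antibody is carried along to show what beads, tube and immunoglobulin hold back on their own. 4E-T, the product of Eif4enif1, binds the cap-binding protein eIF4E and is found in P-bodies, granules where messenger RNAs are kept from translation. Small nucleolar RNAs (snoRNAs) guide the chemical modification of ribosomal RNA, and small Cajal body RNAs (scaRNAs) do the same for the RNAs of the spliceosome. Both kinds sit in tight protein complexes in the nucleus, and most mouse snoRNAs are cut from introns of other genes.

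Each value is a log2 intensity on an Affymetrix array, and a difference is IgG minus the input of the same number, averaged over the 3 pairs, with its standard error (SE) from limma's fit. Genes with an adjusted p under 0.05 (Benjamini-Hochberg, over all 22180 genes) are called higher or lower. RMA normalization gives every array nearly the same distribution of values, so a difference shows a gene's share of the RNA on the array, and the amount of RNA recovered was not analysed here. With limma's paired fit, 1017 genes (4.59%) were called higher in the IgG precipitate and 1938 (8.74%) lower, and the median difference over all genes was 0.03. The calls were 310 higher and 1236 lower without pair 2, 226 and 875 without pair 3, and 525 and 1236 without pair 4. At an unadjusted p under 0.05, limma gave 2766 of the 22180 genes higher and 3407 lower, the background for such counts below. The 3 IgG arrays lay wholly above the 3 inputs at 14.3% of genes and wholly below at 16.2%. Array medians lay between 4.39 and 4.54. Genes of the cortex checked the tissue named in the labels: 38 of 39 radial precursor genes, 26 of 26 proneurogenic factors and 51 of 52 neuronal genes had an input mean above 4.57, the level that 95% of the chemoreceptor genes, which serve smell and taste, stay under, against 3 of 15 markers of other tissues. By IgG means the counts were 37, 26, 50 and 3, so this check cannot tell IgG from input arrays.

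Small nucleolar RNAs stood out among the transcripts the IgG precipitate carried. Of 73 measured with Snord or Snora symbols, 28 were called higher (38.4% of them) and 0 lower, with a median difference of 0.57. For these 73, limma gave 37 higher and 3 lower at an unadjusted p under 0.05. By RefSeq biotype 81 measured genes were snoRNAs, of which 29 were called higher and 1 lower. The counts below are for the 73. The count called higher was 23 without pair 2, 22 without pair 3 and 27 without pair 4. Both structural classes took part, with 17 of 47 box C/D members (Snord symbols) and 11 of 26 box H/ACA members (Snora symbols) called higher.

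Snord89, a box C/D snoRNA, read 11.59, 11.89 and 11.77 on IgG arrays 2, 3 and 4 and 7.70, 8.002 and 7.59 on the inputs. The difference was 3.98 ± 0.15 (SE, n = 3 pairs), a 15.8-fold higher level (limma, adjusted p = 0.000703), and every IgG array lay above every input. It was the largest difference among the 22180 genes in this fit. Snord61 read 9.28, 9.73 and 10.27 against 6.42, 5.59 and 5.90, a difference of 3.79 ± 0.29 (SE, n = 3 pairs; limma, adjusted p = 0.00255). Snora73b, a box H/ACA RNA that takes part in the processing of ribosomal RNA, read 11.58, 11.67 and 10.58 against 7.96, 8.12 and 7.39, a difference of 3.45 ± 0.15 (SE, n = 3 pairs; limma, adjusted p = 0.00133). Neither of the latter overlapped between the groups, and all 3 kept their calls without any one pair. Snora73a, the neighbouring copy, was higher by 2.38 ± 0.19 (SE, n = 3 pairs), and because the copies are near-identical, reads of their shared probes may be split between them. The class reached down to Snord49a at -0.75 ± 0.20 and Snord19 at -0.70 ± 0.20 (SE, n = 3 pairs), neither of them called.

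The scaRNAs, fewer in number, differed more. All but Scarna8 of the 5 measured were called higher, 0 lower, and the median difference was 2.79. Scarna10 read 9.07, 8.89 and 9.01 on the IgG arrays and 5.93, 5.53 and 6.18 on the inputs, which gave 3.11 ± 0.16 (SE, n = 3 pairs; limma, adjusted p = 0.00141). Scarna17 read 11.56, 11.72 and 11.53 against 8.69, 9.11 and 8.49, with a difference of 2.84 ± 0.15 (SE, n = 3 pairs; limma, adjusted p = 0.00156). Both stood apart in all 3 pairs. Scarna6 was higher by 2.79 ± 0.19 and Scarna2 by 2.22 ± 0.17 (SE, n = 3 pairs), and these 4 kept their calls without any one pair. Scarna8 differed by 0.52 ± 0.18 (SE, n = 3 pairs; limma, adjusted p = 0.111) with overlapping groups.

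Small nucleolar and Cajal body RNAs were also compared between the precipitates. In limma's fit over 8 arrays, 4E-T arrays 2 and 3 were lower than the 3 IgG arrays at 37 of 73 snoRNAs and 4 of 5 scaRNAs, and higher at 0 of each, where 2.33% of all genes were called lower and 6.29% higher. Over all genes these calls were 1395 higher and 517 lower, and they came to 232 and 101 without 4E-T array 2 and to 171 and 74 without 4E-T array 3. For snoRNAs the count also fell when 4E-T array 2 or 4E-T array 3 was left out in turn, and each such fit rested on the other 4E-T array alone. Snord89 read 6.71 and 7.51 in the 4E-T precipitates, below all 3 inputs. Snora73b was the exception among the leading RNAs: at 10.30 and 10.63 its 4E-T levels were near the lowest IgG array, and the difference from IgG of -0.81 ± 0.33 (SE) was not called (limma, adjusted p = 0.174). This comparison uses the same IgG arrays as the difference from input, so the 2 are given side by side and not as independent observations.

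**Figure D1:**
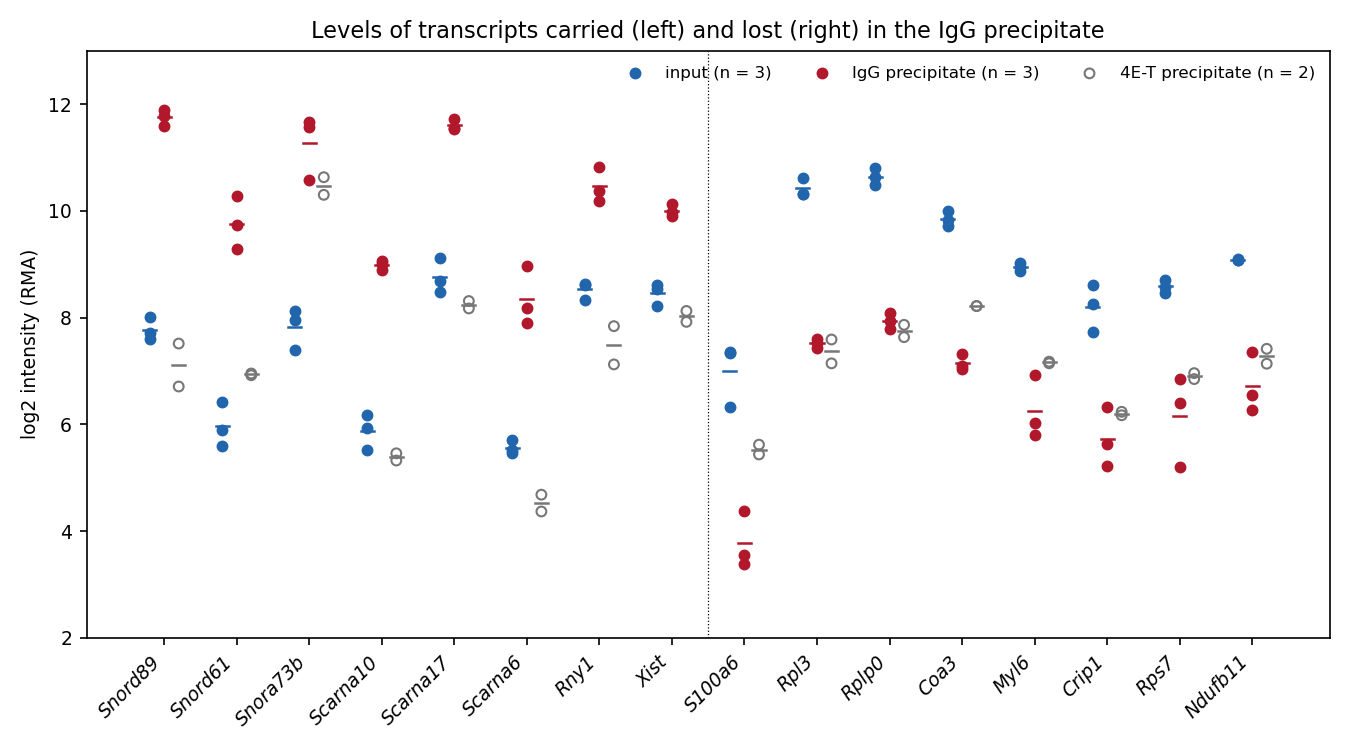
Level of 16 transcripts (log2 intensity, vertical axis) on each input array (blue, n = 3), IgG array (red, n = 3) and 4E-T array (open grey, n = 2), with short bars at the group means. The 8 transcripts left of the dotted line lie higher in IgG than in input on every array, with Snord89 at 11.59 to 11.89 against 7.59 to 8.002, and the 8 on the right lie lower, with S100a6 at 3.38 to 4.37 against 6.33 to 7.36.

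Since most snoRNAs lie inside other genes, each was set beside the measured gene that contains it in the GRCm38.p6 annotation. A total of 60 snoRNAs lay in 46 such genes, and 22 of the 60 were called higher and 0 lower. Of the 46 containing genes 3 were higher and 13 lower, with a median difference of -0.20 against 0.57 for the snoRNAs inside them. Among the 22 snoRNAs called higher the containing gene was lower in 4 cases, higher in 2 and not called in 16. The strand of the snoRNAs was not used, so a containing gene is a gene by position and not always the host transcript.

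Neighbours inside one gene could part ways. The noncoding gene 2410006H16Rik, itself lower in the precipitate (a difference of -1.96 ± 0.25, SE, n = 3 pairs; limma, adjusted p = 0.00569), contains Snord49b at 2.38, Snord49a at -0.75 and Snord65 at -0.30, of which only Snord49b was called. Gnl3, a nucleolar GTP-binding protein gene with a difference of 0.11, contains Snord69 at 1.94 (called) and Snord19 at -0.70 (not called). In Snhg12, at -0.38 and not called, Snora16a was higher by 1.65, Snora44 by 1.49 and Snord99 by 0.83 (highest adjusted p with one pair left out 0.0617 in limma's fit), while Snora61 differed by 0.06 and was not called. Rpl3, a ribosomal protein gene called lower at -2.90 by its brightest probe set, contains Snord83b, called higher at 0.92, and Snord43 at -0.24. The 3 probe sets of Rpl3 ranged from -2.90 to 0.55 with 1 called, so its contrast with Snord83b, counted above, holds for 1 region of the gene. Snord61, at 3.79, lies inside Rbmx, an RNA-binding protein gene at -0.03 that was not called. The snoRNAs of one containing gene thus differed in whether they were called.

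**Figure D2:**
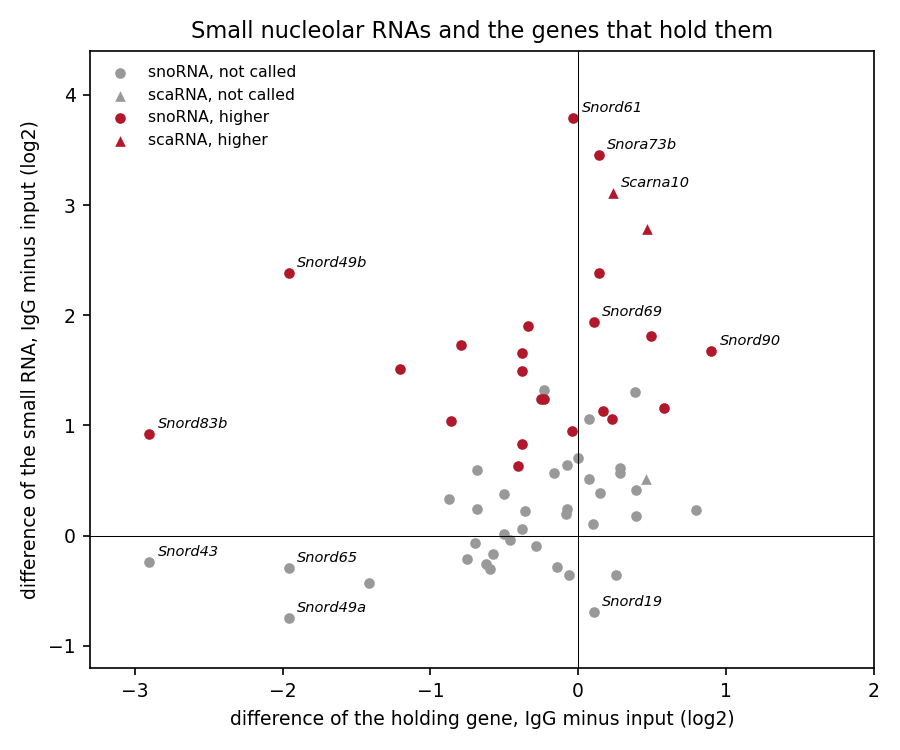
Difference of each snoRNA (circles) and scaRNA (triangles) between IgG precipitate and input (vertical axis, log2) against the difference of the measured gene that contains it (horizontal axis, log2); red marks small RNAs called higher. The called small RNAs spread over containing genes from -2.90 to 0.90, and Snord49b, Snord49a and Snord65 share one containing gene at -1.96.

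Other structured RNAs divided. Rny1, a Y RNA that the Ro protein binds, read 10.18, 10.38 and 10.83 on the IgG arrays and 8.64, 8.33 and 8.62 on the inputs, a difference of 1.94 ± 0.17 (SE, n = 3 pairs; limma, adjusted p = 0.00280) with no overlap, and 7.12 and 7.84 in the 4E-T precipitates. Its relative Rny3 read 12.19, 12.23 and 12.30 against 11.73, 11.67 and 11.75, also without overlap, and missed the threshold at 0.52 ± 0.14 (SE, n = 3 pairs; limma, adjusted p = 0.0505). In the other direction, Rpph1, the RNA subunit of RNase P, read 9.61, 9.40 and 10.10 against 10.81, 10.77 and 10.98, a difference of -1.15 ± 0.16 (SE, n = 3 pairs; limma, adjusted p = 0.00655). Rnu3a, a box C/D RNA of ribosomal RNA processing kept outside the snoRNA symbols, was also lower at -1.86 ± 0.36 (SE, n = 3 pairs; limma, adjusted p = 0.0195), a call lost without pair 2 or pair 3 (highest adjusted p = 0.0814). Of the 10 RNAs on this list 1 was called higher and 2 lower.

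Terc, the telomerase RNA, read 9.33, 9.23 and 9.22 against 9.02, 9.10 and 9.16 and was not called at 0.17 ± 0.14 (SE, n = 3 pairs; limma, adjusted p = 0.513). Its groups did not overlap, though they lay close, and the 4E-T precipitates read 6.66 and 6.54. The gene of 5S ribosomal RNA n-R5s136 was higher by 1.80 ± 0.18 (SE, n = 3 pairs; limma, adjusted p = 0.00300), with the reservation that 5S genes are near-identical copies and the probe set cannot tell them apart.

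MicroRNA genes were the most numerous small RNA class on the arrays. Of 483 genes with such symbols, 5 of them host genes, 23 (4.76%) were called higher and 8 (1.66%) lower, with a median difference of 0.16. The first share was close to the 4.59% of all genes, but the class is dim. Its median levels were 3.26 in IgG and 3.02 in input, and 103 of the 483 had an input mean above 4.57. Of all genes at levels 2.63 to 3.30, 0.857% were called higher and 0.316% lower. Brighter genes had larger shares called higher, from 1.89% at levels 4.90 to 5.65 to 11.5% at 7.22 to 8.23. Called microRNA genes such as Mir15a lie at such levels, so the dim range is not the background of the whole class. In the fit without dim genes, 27 of 103 microRNA genes were higher and 2 lower, against 1585 and 2681 of 12173 genes. Counts of microRNA genes called were 16 and 3 without pair 2, 15 and 2 without pair 3, and 25 and 5 without pair 4. The probe sets read RNA from the position of the hairpin and cannot tell the mature microRNA from its precursor or from a longer transcript across it. A sequence was found for 426 of the 483 in RefSeq's microRNA table (GRCm38.p6). Mature sequences are given for the leading genes because their seeds, bases 2 to 8 in capitals, define the target families in which the genes can be compared. By position these are miR-99a-5p at chr16:77598940-77598961 (+), miR-1955-5p at chr2:92191994-92192018 (+), miR-15a-5p at chr14:61632075-61632096 (-), miR-665-3p at chr12:109586368-109586387 (+), miR-1839-5p at chr7:81529919-81529940 (+), miR-3098-5p at chr6:125195807-125195828 (+) and the copy of miR-196a-5p in Mir196a-2 at chr15:102973365-102973386 (+).
miR-99a-5p: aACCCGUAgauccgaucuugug
miR-1955-5p: aGUCCCAGgaugcacugcagcuuuu
miR-15a-5p: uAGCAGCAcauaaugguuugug
miR-665-3p: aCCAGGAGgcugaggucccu
miR-1839-5p: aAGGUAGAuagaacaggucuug
miR-3098-5p: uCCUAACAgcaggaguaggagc
miR-196a-5p: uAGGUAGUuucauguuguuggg

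Mir99a had the largest difference of the class, with 6.97, 7.54 and 6.06 on the IgG arrays against 4.22, 4.53 and 5.17 on the inputs. Its difference of 2.21 ± 0.39 (SE, n = 3 pairs; limma, adjusted p = 0.0133) lost its call without pair 2 or pair 3 (highest adjusted p = 0.0588). Mir100 and Mir99b share its seed ACCCGUA, and neither was called, at 0.06 and -0.36. Mir15a read 9.18, 8.03 and 7.46 against 6.89, 6.56 and 6.11, a difference of 1.70 ± 0.21 (SE, n = 3 pairs; limma, adjusted p = 0.00502) kept without any one pair. It lies in Dleu2, a noncoding gene called higher at 0.57 with a call lost without any one of the pairs (highest adjusted p = 0.144, limma), and it was the only one of the 6 measured genes with seed AGCAGCA to be called, with the other members at -0.02 or above. Members of a seed family thus did not move as one.

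Mir1955, inside the chromatin gene Phf21a, was higher by 2.13 ± 0.21 (SE, n = 3 pairs; limma, adjusted p = 0.00299), and Phf21a read 0.38 and was not called. Mir665 stood at 1.60 and Mir1839 at 1.38, both called. On the low side Mir3098 read 2.12, 2.62 and 3.71 against 5.40, 4.23 and 4.53, a difference of -1.91 ± 0.42 (SE, n = 3 pairs; limma, adjusted p = 0.0277) that lost its call without pair 3 (adjusted p = 0.0707). The copies of miR-196a, which carry the seed AGGUAGU, went opposite ways: Mir196a-1 was called higher at 0.59 with overlapping groups (call lost without any one of the pairs, highest adjusted p = 0.169, limma), and Mir196a-2 lower at -1.24 ± 0.19 (SE, n = 3 pairs; limma, adjusted p = 0.00868; call lost without pair 3, adjusted p = 0.0506). Both lie near the dim end of the arrays, with Mir196a-2 at 2.60 to 2.92 in IgG and 3.63 to 4.44 in input.

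Long noncoding RNAs known from the nucleus gave 7 of 22 called higher (31.8%) and 1 lower (4.5%), against 4.59% and 8.74% of all genes. Their median was 0.34, and 3 and 0 of them were called without pair 2, 3 and 0 without pair 3, and 5 and 1 without pair 4. Xist, the RNA that coats the inactive X chromosome, read 10.12, 9.98 and 9.90 against 8.62, 8.53 and 8.21, and its difference of 1.54 ± 0.14 (SE, n = 3 pairs; limma, adjusted p = 0.00280) separated the groups. In the 4E-T precipitates it read 8.12 and 7.92. Oip5os1, the conserved long noncoding RNA also called Cyrano, was higher by 1.04 ± 0.15 (SE, n = 3 pairs; limma, adjusted p = 0.00703). Malat1, an abundant RNA of nuclear speckles, was not among them: it read 11.56, 11.35 and 11.32 against 11.39, 11.37 and 11.15, a difference of 0.11 ± 0.14 (SE, n = 3 pairs; limma, adjusted p = 0.687) with overlapping groups. Neat1, which builds paraspeckles, gave -0.18 ± 0.14 (SE, n = 3 pairs). Pantr1 was the member called lower, at -0.81 ± 0.15 (SE, n = 3 pairs; limma, adjusted p = 0.0152), a call lost without pair 2 or pair 3 (highest adjusted p = 0.0901).

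Chemoreceptor genes apart, which are described with the dim genes at the end, the protein-coding gene with the largest called difference was Gabra2, a subunit of the GABA-A receptor. It read 8.07, 7.97 and 8.08 on the IgG arrays and 6.46, 6.14 and 6.62 on the inputs, a difference of 1.63 ± 0.15 (SE, n = 3 pairs; limma, adjusted p = 0.00280). Klhl28 followed at 1.60, the zinc finger gene Zfp457 at 1.56, the copper transporter Atp7a at 1.47, Mtx3 of the metaxin family at 1.43, the amino acid transporter Slc38a2 at 1.42 and Nbeal1 at 1.39. None of these 7 overlapped between the groups, and their calls stood without any one pair. For Gabra2 and Slc38a2 the 4E-T precipitates read close to IgG, with differences of -0.26 ± 0.17 and -0.10 ± 0.14 (SE) that were not called (limma, adjusted p = 0.427 and 0.747).

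Eif4a2, an RNA helicase of translation initiation that contains snoRNAs in its introns, was called at 1.50 ± 0.18 (SE, n = 3 pairs; limma, adjusted p = 0.00460) by its brightest probe set over the 6 arrays. Its 3 probe sets ranged from 0.12 to 1.50, and 1 was called in a separate fit over all 41345 probe sets. The value thus belongs to one region of the gene. It falls to 0.12 (limma, adjusted p = 0.654) with the probe set that is brightest over 10 arrays. Taf1d, a transcription factor subunit of RNA polymerase I with many intronic snoRNAs, has 11 probe sets that ranged from 0.17 to 2.94, with 5 called higher. Protein-coding genes that contain a snoRNA or scaRNA gene were counted beside the others. Of 286 such genes above the level of 4.57, 11.9% were called higher and 13.6% lower. The shares were 6.93% and 15.7% of 11000 genes that contain none, and the median spans of 54.6 and 23.2 kb differed. These genes were also split into 4 span classes. In the longest class 16.3% of 135 containing genes and 15.3% of 2687 others were higher, at median differences of 0.17 and 0.18. In the shortest 6.38% of 47 and 2.02% of 2775 were higher, and 36.2% and 30.2% lower. The classes between gave 6.06% against 3.12% and 9.86% against 7.56% higher. Whether span accounts for the contrast was not tested.

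Among the transcripts lost, S100a6, a calcium-binding protein gene, was lowest. It read 3.56, 4.37 and 3.38 on the IgG arrays and 7.36, 7.33 and 6.33 on the inputs, a difference of -3.24 ± 0.20 (SE, n = 3 pairs; limma, adjusted p = 0.00249), or a 9.42-fold higher level in input. Rplp0, a protein of the large ribosomal subunit, read 8.09, 7.79 and 7.93 against 10.48, 10.64 and 10.80, a difference of -2.71 ± 0.16 (SE, n = 3 pairs; limma, adjusted p = 0.00194), while its second probe set gave -0.58 and was not called. Rpl3, of the same subunit, read 7.60, 7.42 and 7.53 against 10.32, 10.32 and 10.62, a difference of -2.90 ± 0.15 (SE, n = 3 pairs; limma, adjusted p = 0.00141). Its 3 probe sets disagreed in sign, from -2.90 to 0.55, and 1 was called, so the loss holds for the region read by the brightest of them. All 3 genes separated the groups.

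Coa3, an assembly factor of cytochrome c oxidase, was lower at -2.70 ± 0.14 (SE, n = 3 pairs; limma, adjusted p = 0.00141), and its 4E-T levels of 8.22 and 8.22 lay between IgG, at 7.04 to 7.32, and input, at 9.72 to 9.999. The myosin light chain Myl6 stood at -2.70, the LIM protein gene Crip1 at -2.47, the ribosomal protein gene Rps7 at -2.44, the iron-sulfur co-chaperone Hscb at -2.41, the respiratory complex I subunit Ndufb11 at -2.37, the Foxo1 corepressor Fcor at -2.31 and Mrpl14 of the mitochondrial ribosome at -2.30. Usp50 gave -2.41 by one probe set and -0.02 by the other. Calls of these genes, by the probe sets used, stood without any one pair, and none of them overlapped between the groups.

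Several of the leading losses encode proteins of the ribosome and the mitochondrion, and those lists were counted whole. Mitochondrial ribosomal proteins had 57 of 71 called lower and 0 higher, none higher at an unadjusted p under 0.05 either (limma), with a median of -1.09. The count called lower was 48 without pair 2, 42 without pair 3 and 46 without pair 4. Mrpl34 read 8.06, 8.17 and 8.23 against 10.16, 10.30 and 10.24, a difference of -2.08 ± 0.14 (SE, n = 3 pairs; limma, adjusted p = 0.00249). Mrps5, at the other end, read 8.16, 7.75 and 8.18 against 8.06, 7.99 and 8.04 and did not differ beyond its error. Its second probe set gave 0.49 and was not called.

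Oxidative phosphorylation genes, respiratory subunits with assembly factors among them, had 64 of 91 lower and 0 higher, 0 at an unadjusted p under 0.05, with a median of -0.90, and 49, 41 and 53 lower without pairs 2, 3 and 4. Ndufs8, a complex I subunit, read 7.07, 6.52 and 6.95 against 8.62, 8.79 and 8.95. The 10 measured transcripts of the mitochondrial genome, which encode partners of the same complexes, were counted apart: 0 were called in either direction, 0 had an unadjusted p under 0.05 (limma), and their differences lay between 0.11 and 0.32. ND4L, for example, read 11.72, 11.69 and 11.84 against 11.53, 11.30 and 11.46. In 4E-T arrays 2 and 3 ND4L read 10.92 and 10.93.

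Cytosolic ribosomal proteins had 40 of 68 lower and 1 higher, with a median of -0.69, and 26, 18 and 26 lower without pairs 2, 3 and 4. Rps27 stood at -2.25, while Rpl4 read 12.17, 12.11 and 12.28 against 11.90, 11.96 and 11.93 and was not called at 0.25 ± 0.14 (SE, n = 3 pairs; limma, adjusted p = 0.301). The second probe set of Rpl4 differed in sign, at -0.49, and was not called either. Rpl22l1, a paralog, was the member called higher at 0.62, a call lost without any one of the pairs (highest adjusted p = 0.132). Ribosomal protein genes have many processed copies, and reads of shared probes may be split between a gene and its copies.

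The proteasome list gave 27 of 49 lower (55.1%) and 2 higher (4.08%), against 8.74% and 4.59% of all genes. Its median was -0.66, and 18, 11 and 20 were lower without pairs 2, 3 and 4. The assembly chaperone Psmg3 was lowest at -1.76 and the activator subunit Psme1 next at -1.73. Psme4, another proteasome activator, was one of the members called higher, at 0.68, a call lost without any one of the pairs (highest adjusted p = 0.116). Among translation factors 21 of 71 were lower (29.6%) and 3 higher (4.23%), with Eef1d at -1.62, Eif3i at -1.54 and Eif3m at -1.32. Of these factors 18, 13 and 17 were lower without pairs 2, 3 and 4. Replication-dependent histone genes, whose messengers end in a stem-loop instead of a poly(A) tail, had 13 of 26 lower and 0 higher, 0 at an unadjusted p under 0.05 (limma), and 10, 9 and 10 lower without pairs 2, 3 and 4. H1f2 read 7.38, 7.22 and 6.93 against 8.73, 8.83 and 8.85.

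**Figure D3:**
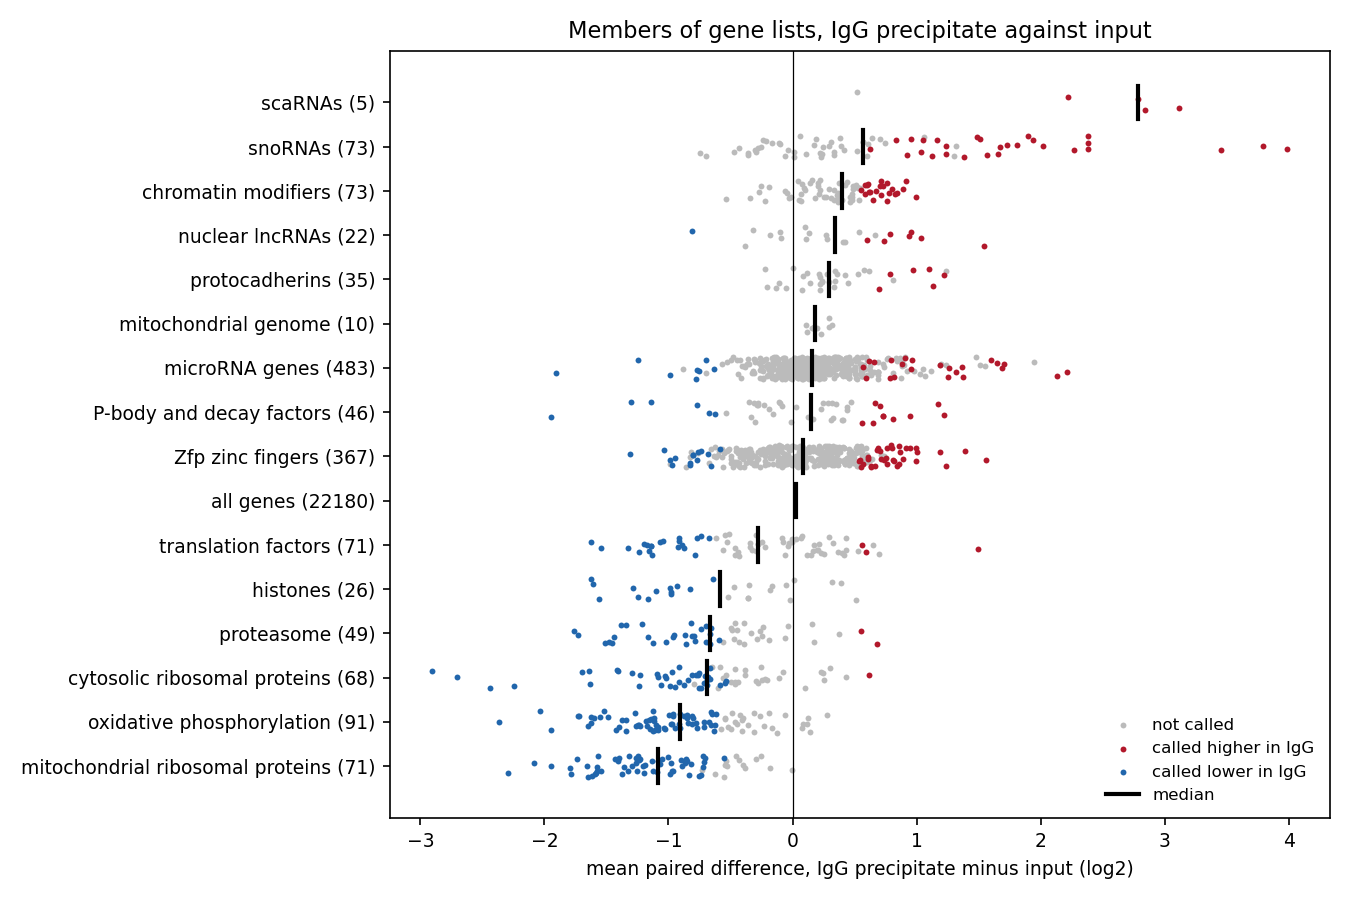
Mean paired difference between IgG precipitate and input (horizontal axis, log2) of every member of 15 gene lists (points; red called higher, blue called lower, grey not called), with black bars at the list medians and at the median of all 22180 genes. The scaRNA and snoRNA medians lie at 2.79 and 0.57, the mitochondrial ribosomal proteins at -1.09, and the mitochondrial genome between 0.11 and 0.32.

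Chromatin modifiers, the enzymes and remodellers that act on histones and nucleosomes, had calls on the high side. Of 73 chromatin modifiers 22 were called higher (30.1%, against 4.59% of all genes) and 0 lower, and the median was 0.40. The tenth of all genes at levels 7.222 to 8.225, which holds the median level of this list, had 11.5% higher and 21.1% lower. Protein-coding genes of long span and high level, described with gene span below, had 26.3% higher and 4.46% lower, at a median of 0.32. The spans of this list were not compared, so its share is not set apart from theirs. At an unadjusted p under 0.05 (limma) 42 were higher and 1 lower, where all 22180 genes had 2766 and 3407. The count called higher rested on all 3 pairs, since it was 3 without pair 2, 0 without pair 3 and 10 without pair 4. Kmt2c, a histone H3 methyltransferase, read 8.99, 8.85 and 8.95 against 7.89, 7.72 and 8.19, a difference of 1.00 ± 0.15 (SE, n = 3 pairs; limma, adjusted p = 0.00866; 0.0552 without pair 3). Nsd1, another histone methyltransferase, stood at 0.91 (limma, adjusted p = 0.0807 without pair 3) and Arid2, a subunit of a chromatin remodeller, at 0.84 (limma, highest adjusted p = 0.0561, without pair 2, and lost without pair 3 too), and neither overlapped between the groups. The histone deacetylase Hdac3 gave -0.54 and was not called.

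Zinc finger genes with Zfp symbols gave 35 of 367 higher (9.54%) and 15 lower (4.09%), at a median of 0.08, with 9 and 9 without pair 2, 8 and 5 without pair 3, and 21 and 5 without pair 4. Zfp960 at 1.39 and Zfp871 at 1.19 kept their calls without any one pair. In the fit over 8 arrays the 4E-T precipitates exceeded IgG at 97 of these 367 genes, where 6.29% of all genes did, and at 28 without 4E-T array 2 and 25 without 4E-T array 3. Protocadherins, cell adhesion genes of neurons, gave 6 of 35 higher (17.1%, against 4.59% of all genes) and 0 lower. At an unadjusted p under 0.05 (limma) 13 protocadherins were higher and 0 lower. Of this list 3, 4 and 6 were higher without pairs 2, 3 and 4. Pcdhb21 read 5.43, 5.38 and 5.39 against 3.76, 4.23 and 4.55.

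Of 46 factors of the P-body and of messenger RNA decay 10 were higher (21.7%) and 6 lower (13.0%), against 4.59% and 8.74% of all genes. Counts for this list were 3 and 3 without pair 2, 2 and 3 without pair 3, and 5 and 3 without pair 4. Pum2, an RNA-binding repressor, read 10.56, 10.45 and 10.23 against 9.28, 9.25 and 9.04, a difference of 1.22 ± 0.14 (SE, n = 3 pairs; limma, adjusted p = 0.00417), and Smg1, a kinase of nonsense-mediated decay, was higher by 1.17 ± 0.15 (SE, n = 3 pairs; limma, adjusted p = 0.00520). The 6 members called lower were Lsm4 at -1.94, Lsm5 at -1.30, Lsm1 at -1.14, Lsm2 at -0.77, Lsm3 at -0.67 and Lsm7 at -0.63, whose proteins form rings on RNA ends. Of these, Lsm2, Lsm3 and Lsm7 lost their calls without any one of the pairs (limma, highest adjusted p = 0.0886, 0.121 and 0.159). Lsm6 at -0.54, Lsm14a at -0.23 and Lsm14b at -0.16 were not called. Eif4enif1, the messenger of 4E-T itself, read 8.39, 8.06 and 7.97 against 8.02, 7.86 and 7.85, and at 0.23 ± 0.14 (SE, n = 3 pairs; limma, adjusted p = 0.362) was not called. Eif4e gave -0.08 ± 0.17 (SE, n = 3 pairs).

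The differences were also set against gene span over all protein-coding genes. Span here is the length of the gene on the genome, introns included, since transcript and protein lengths were not used. Among protein-coding genes in the upper level class (the genes are split into 3 classes of equal size by mean level, and each class into 4 by span), 50.8% of the shortest span class were called lower and 3.08% higher, with a median difference of -0.59. In the longest span class 4.46% were lower and 26.3% higher, with a median of 0.32. The lower level class showed the same order in a weaker form, with 10.8% lower in the shortest span class and 3.61% in the longest. Across 11286 protein-coding genes above the level of 4.57 the difference rose with log10 span at Pearson r = 0.358 and Spearman rho = 0.373, which describes genes that share the same 6 arrays. Taken one pair at a time, r was 0.375, 0.328 and 0.276 in pairs 2, 3 and 4.

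**Figure D4:**
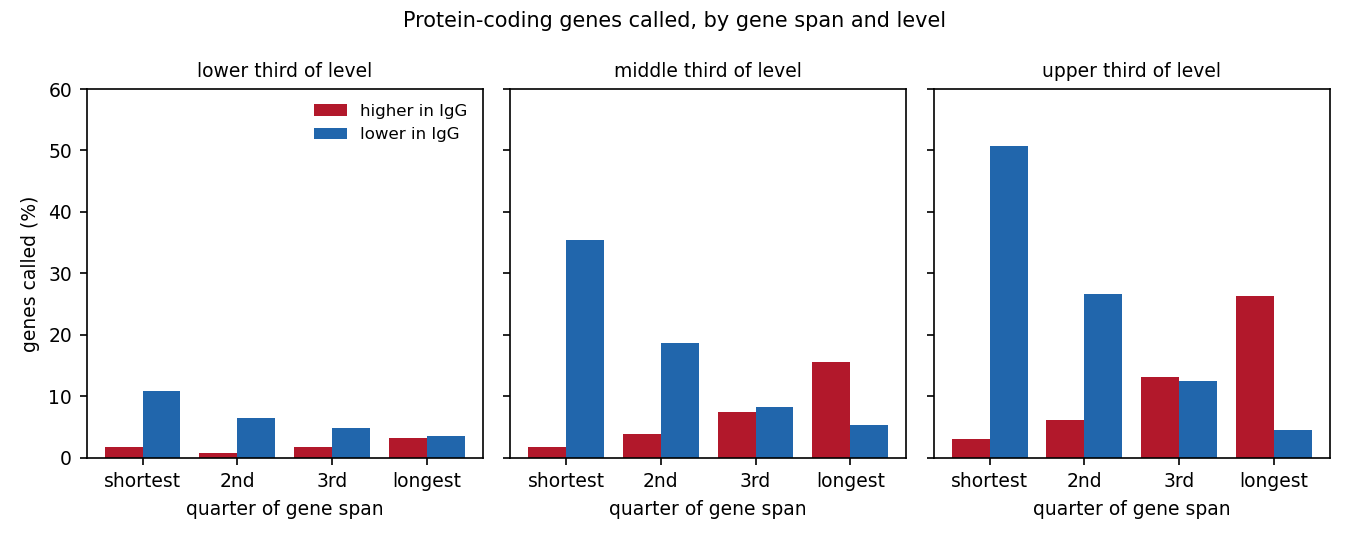
Percentage of protein-coding genes called higher (red) or lower (blue) in the IgG precipitate, in 4 classes of gene span within each of 3 classes of mean level (panels). In the upper level class the share called lower falls from 50.8% in the shortest span class to 4.46% in the longest, and the share called higher rises from 3.08% to 26.3%.

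Genes of the cortical cell types showed no common direction. Radial precursor genes, which mark the neural stem cells, had 7 of 39 higher (17.95%) and 4 lower (10.3%), where all genes had 4.59% and 8.74%. The tenth of all genes at levels 7.222 to 8.225, which holds the median level of this list, had 11.5% higher and 21.1% lower. Counts for the list were 2 and 3 without pair 2, 1 and 1 without pair 3, and 4 and 2 without pair 4. Vim, an intermediate filament of these cells, was lower at -0.97 ± 0.14 (SE, n = 3 pairs; limma, adjusted p = 0.00795), and Fzd8, a Wnt receptor, higher at 1.01 ± 0.14 (SE, n = 3 pairs; limma, adjusted p = 0.00655) with overlapping groups. Sox2, Pax6, Neurog2 and Eomes, transcription factors of stem cells and neuron precursors, read 0.11, 0.23, 0.30 and 0.17 and were not called. Cell types are not resolved in bulk samples, where fewer cells of a type and less RNA per cell cannot be told apart between tissues; an IgG precipitate and its input come from corresponding samples, per the series design.

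Neuronal genes had 5 of 52 higher (9.6%) and 6 lower (11.5%), against 4.59% and 8.74% of all genes. The tenth of all genes at levels 7.222 to 8.225, which also holds the median level of this list, had 11.5% higher and 21.1% lower. Counts for the neuronal genes were 1 and 4 without pair 2, 0 and 2 without pair 3, and 1 and 4 without pair 4. Stmn2, a microtubule regulator of growing axons, read 8.76, 9.01 and 9.44 against 10.32, 10.73 and 10.88, a difference of -1.57 ± 0.14 (SE, n = 3 pairs; limma, adjusted p = 0.00280). Dcx, a microtubule protein of migrating neurons, went the other way at 0.90 ± 0.14 (SE, n = 3 pairs; limma, adjusted p = 0.00977), a call lost without pair 3 (adjusted p = 0.0642). Proneurogenic factors gave 5 of 26 higher (19.2%) and 2 lower (7.69%), against 4.59% and 8.74% of all genes. Counts for these factors were 0 and 1 without pair 2, 0 and 1 without pair 3, and 1 and 2 without pair 4. Gadd45g, a target of proneural factors, was lowest at -1.80 ± 0.23 (SE, n = 3 pairs; limma, adjusted p = 0.00523).

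Fc receptors are the proteins by which immune cells bind IgG, and their genes were listed with the immunoglobulin genes. Of 40 Fc receptor and immunoglobulin genes 0 were called in either direction, with 2 higher and 1 lower at an unadjusted p under 0.05 (limma), and 8 of the 40 had an input mean above 4.57. Fcgr3, a low-affinity IgG receptor, read 4.17, 3.91 and 4.15 against 3.91, 4.49 and 4.36, and Fcer1g, the signalling chain of these receptors, 4.96, 5.58 and 5.05 against 5.59, 5.21 and 5.93. Neither separated the groups. Microglia and macrophage genes gave 1 of 24 higher (4.17%) and 2 lower (8.33%), near the 4.59% and 8.74% of all genes. Among them Cx3cr1 stood at 0.75 (call lost without pair 3 or pair 4, limma, highest adjusted p = 0.155) and Tyrobp at -1.43. The mean level of this list was 4.28 to 4.56 in IgG and 4.496 to 4.65 in input. Endothelial genes gave 0 of 23 higher and 4 lower (17.4%, against 8.74% of all genes), with Emcn lowest at -1.46. At an unadjusted p under 0.05 (limma) 1 endothelial gene was higher and 7 lower. Of this list 2, 1 and 2 were lower without pairs 2, 3 and 4. Erythroid genes gave 0 of 10 higher and 3 lower (30%), and 1 and 3 at an unadjusted p under 0.05 (limma). Of the erythroid genes 1, 1 and 2 were lower without pairs 2, 3 and 4.

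Housekeeping references did not mark a common shift. Actb, cytoplasmic actin, read 8.16, 8.41 and 8.51 against 8.07, 8.68 and 8.31, a difference of 0.00 ± 0.16 (SE, n = 3 pairs). Gapdh, a glycolytic enzyme, gave -0.26 ± 0.14 (SE, n = 3 pairs; limma, adjusted p = 0.303) by its brightest probe set, and its 3 probe sets ranged from -1.38 to -0.26 with 1 called lower. Chemoreceptor genes, which the cortex should hardly use, gave 24 of 1427 higher (1.68%) and 1 lower (0.07%), against 4.59% and 8.74% of all genes. Their median difference was 0.13, and their median levels were 2.56 in IgG and 2.42 in input. Of all genes at levels 1.35 to 2.63, 0.902% were called higher, and at levels 2.63 to 3.30 0.857%. Of the chemoreceptor genes 17, 13 and 17 were higher without pairs 2, 3 and 4. Olfr1564 led them, reading 4.65, 4.80 and 4.91 on the IgG arrays, 2.55, 2.92 and 2.62 on the inputs and 2.61 and 2.67 in the 4E-T precipitates, a difference of 2.09 ± 0.15 (SE, n = 3 pairs; limma, adjusted p = 0.00255).

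Some genes were called only because the pairs were used. Kctd12 read 7.49, 7.52 and 9.16 on the IgG arrays and 5.93, 6.17 and 7.997 on the inputs: both members of pair 4 were high, and the groups overlapped. Its paired differences of 1.56, 1.35 and 1.17 gave 1.36 ± 0.15 (SE, n = 3 pairs; limma, adjusted p = 0.00389). Cwc22, a splicing factor, read 9.19, 7.97 and 6.66 against 8.50, 7.12 and 5.93, with differences of 0.69, 0.85 and 0.74 (limma, adjusted p = 0.0151; call lost without any one of the pairs, highest adjusted p = 0.0915). In Crabp2, which binds retinoic acid, pair 4 stood low on both sides, at 5.66 against 8.56, where pairs 2 and 3 read 8.87 and 8.82 against 10.18 and 10.26. These genes were picked after their values were seen, as cases in which the numbered samples of a pair deviate together.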

How the data were processed

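RNA was amplified with the NuGEN Pico protocol and labelled with the WT Terminal Labeling Kit, per the labels' protocols. The deposited values are log2 intensities that the authors computed by RMA; the submitters' processing notes name Affymetrix Expression Console. For its version the entry is: not given in the sources used here. Of 41345 probe sets 23521 had 1 gene symbol in the platform annotation, 1814 several and 16010 no entry. Single-symbol probe sets were kept, 1 per gene with the highest mean over the 6 arrays, which gave 22180 genes, 1082 of them with several probe sets. Where a gene's several probe sets are counted as called, the calls come from a separate paired fit over all 41345 probe sets. Its adjusted p can differ from that of the gene fit. No filter on dim genes was applied. Protein lengths were not used here, and gene span took their place. The number of arrays limits the precision.

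Paired differences went through limma 3.58.1 (R 4.3.3; lmFit with the replicate number as a block, eBayes defaults, Benjamini-Hochberg adjustment), checked on simulated data. The comparison of 4E-T with IgG used a group-only fit over 8 arrays, since 4E-T array 1 and input 1 lie on another scale, with medians of 3.52 and 3.54. The pairs come from the rule that defines the experiment. Deviations of same-numbered arrays from their group means correlated at 0.135, 0.0902 and 0.245 in pairs 2, 3 and 4, each IgG array best with its own number, though pair 3 does not pass 0.1. Genes were named by a rule: called genes with no overlap between groups at each end, the ends of each list and RNA class, and a fixed set. Members and lists were chosen with earlier results of these data known, and lists were described by counts and medians. Names, positions and microRNA sequences came from RefSeq's tables (GRCm38.p6). Alternatives covered the block, left-out pairs, other arrays, centring, quantile normalization, dim genes, probe set choice and the prior. Figures used matplotlib 3.10.9.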

Additional observations from a re-analysis of the deposited data

Results flagged for a closer look

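Probe sets outside the 22180 genes were counted in a separate limma fit of the same paired design. That fit ran over all 41345 probe sets, and its p-values were adjusted over all of them. Of 1814 probe sets with several gene symbols, 17 (0.937%) were called higher in the IgG precipitate and 102 lower, and of 16010 probe sets with no annotation entry 417 (2.6%) were called higher and 267 lower. Both shares called higher lie below the 4.59% of the 22180 genes, a share that comes from the other fit and its own adjustment. They were picked out as signal in data that no comparison of genes used, and they are not named, having no single gene symbol. With 3 arrays a group, no test for a single outlying array was made.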

How the results depend on the processing

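Without the replicate block 961 genes were called higher and 1894 lower, and 2609 of its 2855 calls were shared with the 2955 of the paired fit. Leaving out 1 pair gave 1101 to 1761 calls, 226 to 525 higher and 875 to 1236 lower. The fit over 10 arrays, group only, gave 1207 calls, 323 higher and 884 lower, and moved the median of all genes from 0.03 to 0.20. An intensity trend with a robust prior gave 4443 calls, 1742 of them higher. Quantile normalization of the 6 arrays among themselves gave 1535 higher and 1679 lower, which raised the share of calls that were higher from 34.4% to 47.8%, and leaving out dim genes gave 1585 higher of 12173 tested. No gene called in the paired fit was called in the opposite direction under any of the 12 alternatives. For 4E-T over IgG, leaving out 1 array gave 245 to 1999 calls, 171 to 1516 higher and 74 to 548 lower, and the block over 8 arrays gave 1366 and 525. Of 3336 values of named genes under alternatives 2962 kept their call, 278 lost it, 96 gained it and 0 changed sign after a call; the cause was not tested. Medians of lists near 0 can turn: snoRNA host genes went from -0.06 to 0.12 under quantile normalization. Signal over background limits the dim genes, since 12173 of the 22180 genes were left when dim ones were dropped.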
